A study of Mus musculus with 7 samples.

Results

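Malat1, a long noncoding RNA of the nucleus, was read by 5 of the 22690 probe sets on these mouse Affymetrix arrays, and each probe set was followed on its own across all 7 arrays. The 5 probe sets, 1438403_s_at, 1418188_a_at, 1418189_s_at, 1452378_at and 1427285_s_at, were all those whose annotation names Malat1 as their gene, and 0 probe sets name it among several genes. The gene was chosen by its signals on these same arrays, so its levels and differences are given as descriptions, with no test. The arrays hold total RNA of mouse embryonic fibroblasts (MEF). The p53-/- Dnmt1-/- cells lack the tumour suppressor p53 and the maintenance DNA methyltransferase Dnmt1, and gave 4 arrays: untreated (0 h), TSA (trichostatin A, an inhibitor of histone deacetylases) for 24 h, TSA for 48 h, and 2 weeks after TSA had been removed. The p53-/- cells lack p53 alone and gave 3 arrays, at 0, 24 and 48 h of TSA. Each group was 1 array, so no difference between 2 arrays had a replicate check, and all cells shared the loss of p53. The labels name no separate cultures, clones, embryonic ages or TSA dose.

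Malat1 is transcribed by RNA polymerase II and stays in the nucleus, where it concentrates in speckles, the bodies in which splicing factors are stored. Its 3′ end is not polyadenylated in the usual way: RNase P cuts the primary transcript, releasing a small tRNA-like RNA (mascRNA), and the long RNA is left with a triple helix at its end. Neat1, its neighbour on the chromosome, is the scaffold of paraspeckles, which lie beside speckles. Dnmt1 copies methylation of CG dinucleotides onto new DNA strands, and histone deacetylases remove acetyl groups that accompany active chromatin.

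Because Dnmt1 acts at CG, the Malat1 promoter is shown with every CG in capitals. It is the RefSeq window from 250 bases before to 50 bases after the annotated start, chr19:5802623-5802922 on the minus strand of GRCm38.p6, written 5′ to 3′.

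Malat1 promoter: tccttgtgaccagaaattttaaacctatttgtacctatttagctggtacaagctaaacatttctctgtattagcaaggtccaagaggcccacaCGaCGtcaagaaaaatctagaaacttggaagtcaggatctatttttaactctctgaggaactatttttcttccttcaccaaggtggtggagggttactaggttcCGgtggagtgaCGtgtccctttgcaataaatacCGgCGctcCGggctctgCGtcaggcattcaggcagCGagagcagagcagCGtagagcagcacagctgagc

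The window held 10 CG, of which 8 lay past its middle, on the side of the start. The motif CG reads the same on both strands. Of 32851 RefSeq promoter windows of the same length, 43.5% held as many or more, and the median was 7. The arrays do not measure methylation, so the state of these CG in the cells was not tested.

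The arrays as a whole were compared through the targeted gene, marker lists and controls. The brighter Dnmt1 probe set had signals of 74.0 to 206.5 on the p53-/- Dnmt1-/- arrays, against 308.2 to 695.6 on the p53-/- arrays; whether it reads the deleted part of the gene was not tested. All 13 listed fibroblast markers were above the pooled median of all signals on the p53-/- arrays, and 10 to 12 of 13 on the p53-/- Dnmt1-/- arrays. Their summed signal was 9427 to 16773 in p53-/- Dnmt1-/- cells and 31172 to 39386 in p53-/- cells. Dcn went the other way, at 617.8 to 1612 in p53-/- Dnmt1-/- cells and 73.8 to 551.8 in p53-/- cells. The summed signal of 11 epithelial markers was 7970 to 13595 in p53-/- Dnmt1-/- cells, with 5 or 6 of 11 above the pooled median. In p53-/- cells it was 182.8 to 465.7, with 1 or 2 above it. Keratins carried the sum: on the untreated p53-/- Dnmt1-/- array Krt8, Krt18, Krt19 and Krt14 read 1860 to 2917. There Cdh1 read 66.6, and Krt5, Epcam, Cldn4, Cldn7, Muc1 and Ocln read 2.2 to 28.1. The control probe set for the 3′ end of 18S ribosomal RNA varied widely across the arrays. In p53-/- Dnmt1-/- cells it read 688.1 untreated, 2549 at 24 h, 1292 at 48 h and 93.6 after removal. On the p53-/- arrays it read 194, 337.5 and 228.7 at 0, 24 and 48 h. The Actb control read 7905 after removal, against 5421 untreated in the same genotype. The part of the 18S control in the TSA and genotype differences was not tested. Macrophage, endothelial and neuronal marker lists summed to 202.8 to 388, 24.6 to 98.3 and 124.3 to 365.4 on the p53-/- Dnmt1-/- arrays. On the p53-/- arrays they summed to 158.4 to 192.1, 70.4 to 85.3 and 301.9 to 1413. Where the neuronal list summed to 1413, Stmn2 alone read 1251. In RNA of mixed cells, fewer cells of a type and less RNA per cell cannot be told apart.

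On 4 of its 5 probe sets, Malat1 read highest on the array taken 2 weeks after TSA removal. On 3 of these the signal there was at least 2-fold that of all 3 other p53-/- Dnmt1-/- arrays, which held for 4.33% of the probe sets that passed a filter on low signals. The after-removal array was the highest of the 7 for 25.4% of those probe sets. The labels name no untreated array from that later time and no p53-/- array after removal. Earlier TSA, its removal, the time passed and the array itself therefore cannot be told apart. The brightest probe set, 1438403_s_at, had signals of 54.4 untreated, 121.2 at 24 h, 145.3 at 48 h and 1236 after removal in p53-/- Dnmt1-/- cells, and of 135.8, 545.6 and 650.1 at 0, 24 and 48 h in p53-/- cells. It was lowest on the untreated p53-/- Dnmt1-/- array, and its after-removal signal exceeded the other 6. Probe set 1418188_a_at had signals of 30.6, 31.2, 37.2 and 637.9 on the same 4 p53-/- Dnmt1-/- arrays and of 36.9, 100 and 106.9 on the p53-/- arrays. Here too the after-removal signal stood alone, and the other 3 p53-/- Dnmt1-/- arrays lay near the untreated p53-/- array. Probe set 1418189_s_at had signals of 40.7, 57, 47.2 and 456 in p53-/- Dnmt1-/- cells and of 66.8, 138.1 and 125.6 in p53-/- cells.

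The remaining probe sets were dim. Probe set 1452378_at had signals of 34.4, 40.2, 39.3 and 58.7 in p53-/- Dnmt1-/- cells and of 17.3, 35.4 and 36.5 in p53-/- cells. It exceeded the pooled median of 45.6 on the after-removal array and on no other, so it passed the filter, a signal above that median on at least 1 array, only there. Probe set 1427285_s_at had signals of 2.4, 11.1, 3.6 and 2.4 in p53-/- Dnmt1-/- cells and of 3.5, 19.5 and 25.9 in p53-/- cells. It exceeded the pooled median on 0 of 7 arrays and did not pass the filter, so its differences are given only in counts and in the plot of differences. Against all other probe sets of the same array, 1438403_s_at stood at percentile 96.5 after removal and at percentile 53.4 on the untreated array of that genotype.

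**Figure D1:**
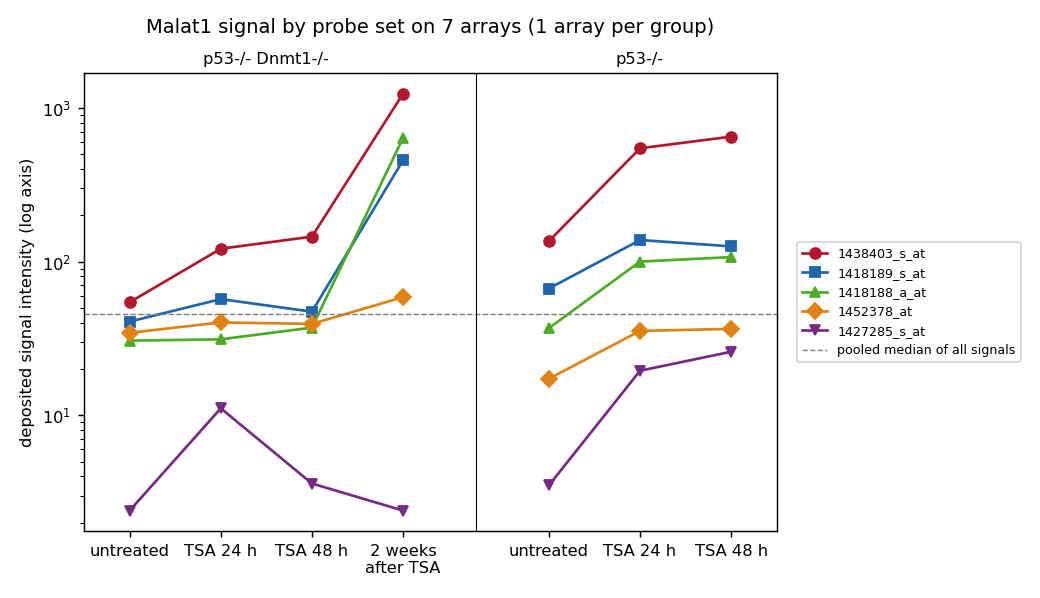
Deposited signal intensity (log axis) of the 5 Malat1 probe sets on the 4 p53-/- Dnmt1-/- arrays and the 3 p53-/- arrays, 1 point per array, with the pooled median of 45.6 dashed. The after-removal signals of 3 probe sets, 456 to 1236, lie above all their other p53-/- Dnmt1-/- signals, while 1427285_s_at stays at 2.4 there.

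Differences were taken on log2(signal + 11.4), where 11.4 is the 25th percentile of all signals; the offset understates the change of dim probe sets. After removal minus untreated, the difference was 4.24 for 1438403_s_at, 3.95 for 1418188_a_at, 3.17 for 1418189_s_at and 0.61 for 1452378_at. The first 3 were at least 2-fold higher, as were 6.73% of the 14012 probe sets that passed the filter, while 8.44% were at least 2-fold lower. The median difference was 3.17 over the 5 Malat1 probe sets and -0.06 over all that passed. In the order of those 14012 differences, the Malat1 probe sets held places 1, 2, 6 and 2341. Against the array at 48 h of TSA the same 4 probe sets differed by 2.99, 3.74, 3.00 and 0.47, and against the array at 24 h by 3.23, 3.93, 2.77 and 0.44. Averaged over these 3 comparisons, which share the after-removal array, 1438403_s_at differed by 3.49 ± 0.66 and 1418188_a_at by 3.87 ± 0.12 (SD, n = 3 arrays compared). The 18S controls were lower and Actb higher on that array, and their part in the result was not tested. With each array shifted to the same mean of the 6 Actb and Gapdh control probe sets, a scaling chosen after seeing the data that takes 0.43 off the difference of every probe set, the difference of 1438403_s_at from untreated was 3.82.

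**Figure D2:**
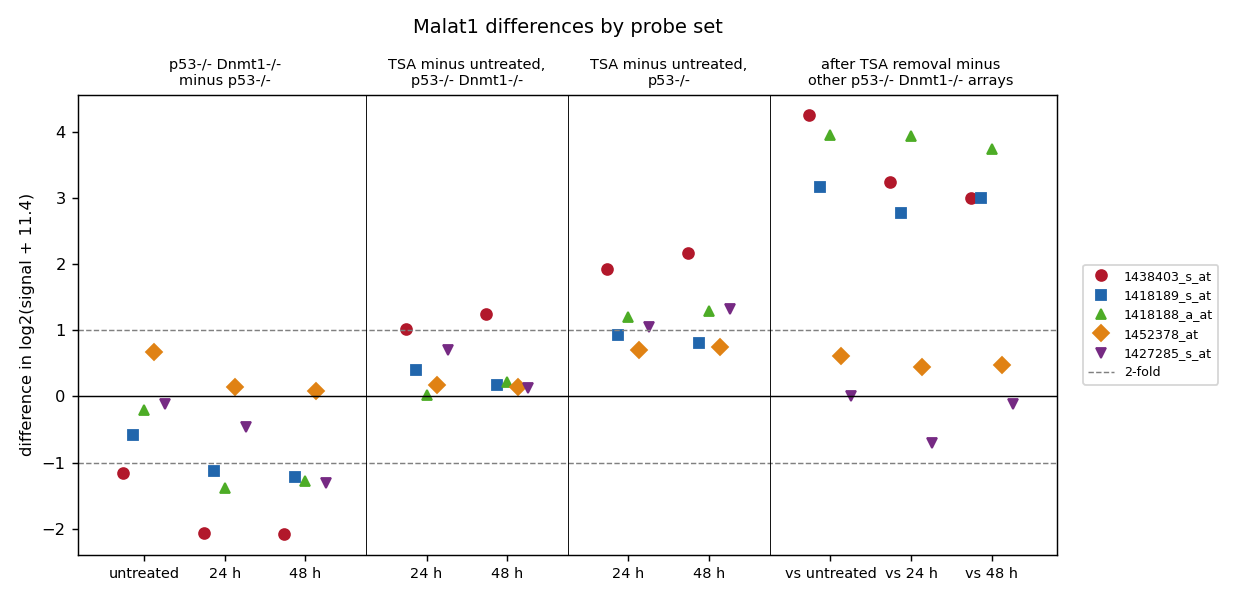
Differences in log2(signal + 11.4) of the 5 Malat1 probe sets for 10 pairs of arrays, in 4 blocks: genotype at each time, TSA in each genotype, and after removal. Dashed lines mark 2-fold. In the after-removal block 3 probe sets lie between 2.77 and 4.24, 1452378_at lies between 0.44 and 0.61, and the dim 1427285_s_at lies between -0.71 and 0.

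With TSA, Malat1 read higher than untreated on all 5 probe sets, at both times and in both genotypes, as did 17.0% of the probe sets that passed the filter. In p53-/- Dnmt1-/- cells the brightest probe set, 1438403_s_at, differed by 1.01 at 24 h and 1.25 at 48 h, a mean of 1.13 ± 0.17 (SD, n = 2 times). At the larger offset of the pooled median this mean was 0.84, under 2-fold. In p53-/- cells it differed by 1.92 at 24 h and 2.17 at 48 h, a mean of 2.04 ± 0.18 (SD, n = 2 times). A difference of at least 2-fold upward at both times was found for 1.71% of probe sets in p53-/- Dnmt1-/- cells and 1.51% in p53-/- cells.

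The TSA difference was smaller on the other probe sets. For 1418188_a_at the mean was 0.12 ± 0.13 in p53-/- Dnmt1-/- cells and 1.25 ± 0.06 in p53-/- cells (SD, n = 2 times each). Its p53-/- Dnmt1-/- signals in that comparison, 30.6 to 37.2, all lay below the pooled median of 45.6. For 1418189_s_at the mean was 0.28 ± 0.16 in p53-/- Dnmt1-/- cells and 0.87 ± 0.09 in p53-/- cells. The dim 1452378_at gave 0.16 ± 0.02 in p53-/- Dnmt1-/- cells and 0.72 ± 0.02 in p53-/- cells. On each of these probe sets, and on 1438403_s_at, the TSA difference in p53-/- Dnmt1-/- cells lay below that in p53-/- cells, by 0.56 to 1.13 on the log2 scale. The differences at 24 h and 48 h share their untreated array, so the SD holds no spread of that array, and the gap between genotypes was not tested.

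Between genotypes at matched times, Malat1 read lower in p53-/- Dnmt1-/- cells on 4 of 5 probe sets at all 3 times, as did 31.6% of the probe sets that passed the filter. For 1438403_s_at the difference, p53-/- Dnmt1-/- minus p53-/-, was -1.16 untreated, -2.07 at 24 h and -2.08 at 48 h, a mean of -1.77 ± 0.53 (SD, n = 3 times). It was at least 2-fold lower at all 3 times, as were 6.01% of the probe sets tested. For 1418188_a_at the 3 differences were -0.20, -1.39 and -1.28, and for 1418189_s_at they were -0.59, -1.13 and -1.23. Both were past 2-fold at 24 h and 48 h and within 2-fold in untreated cells. The untreated signals of 1418188_a_at, 30.6 and 36.9, both lay below the pooled median of 45.6. Of the 5 Malat1 probe sets, 1 was at least 2-fold lower untreated, 3 at 24 h and 4 at 48 h, the fourth being the dim 1427285_s_at. The share of all probe sets that were at least 2-fold lower was 10.7% untreated, 12.0% at 24 h and 12.4% at 48 h. The dim 1452378_at went the other way, with 0.67 untreated, 0.14 at 24 h and 0.08 at 48 h. Fibroblast and epithelial marker sums also differed between the genotypes, as given above, and their part in the Malat1 difference was not tested.

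Malat1 on the after-removal p53-/- Dnmt1-/- array exceeded the untreated p53-/- array by 3.08 on 1438403_s_at, 3.75 on 1418188_a_at, 2.58 on 1418189_s_at and 1.29 on 1452378_at. These 4 differences were all at least 2-fold, as were 16.3% of the probe sets tested. Of the 4, 1452378_at had passed the filter only through the after-removal array. Of the 5 Malat1 probe sets 1 was lower, the dim 1427285_s_at, at 2.4 after removal and 3.5 on the untreated p53-/- array.

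The 3 brighter probe sets followed each other closely across the 7 arrays, and the 2 dim ones did not follow them over all 7. Affymetrix names carry their design: a probe set ending in _a_at reads several transcripts of 1 gene, and one ending in _s_at may read transcripts of several genes. The annotation ties 1418188_a_at and 1418189_s_at to the same source sequence, 1452378_at and 1427285_s_at to another, and 1438403_s_at to a sequence of its own. Over the 7 arrays, Pearson's r of the log2 values was 0.99 between 1418188_a_at and 1418189_s_at, 0.90 between 1438403_s_at and 1418188_a_at, and 0.93 between 1438403_s_at and 1418189_s_at. Without the after-removal array, left out after seeing the data, these became 0.95, 0.96 and 0.96 over 6 arrays. The r between 1438403_s_at and 1452378_at was 0.51 over 7 arrays and 0.15 over 6. The dim 1427285_s_at had an r of 0.41 with 1438403_s_at over 7 arrays and of 0.90 without the after-removal array. The arrays share their cells and treatments, and these r describe the profiles only.

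Probe sets of other genes were as alike: 58 of 8894 probe sets that varied by at least 2-fold had an r above 0.9 with 1438403_s_at. In the order of r with 1438403_s_at among the probe sets that passed the filter, 1418189_s_at held place 40 and 1418188_a_at place 91. For 1418189_s_at, the highest r of all belonged to its partner 1418188_a_at. In the other direction, 1418189_s_at held place 7 in the order for 1418188_a_at. Without the after-removal array the partners held places 158 and 105 in these 2 orders. The 4 Malat1 probe sets that passed the filter spanned 3.63 log2 units in the difference after removal minus untreated. Of 353 other genes with at least 4 such probe sets, 1 spanned as much, which was Rbm39 at 3.86, and their median span was 1.14. The low end of the Malat1 span was the dim 1452378_at, at 0.61, which passed the filter only through the after-removal array. A span can grow with the size of the change, and Malat1 was chosen by these signals. Its place among the genes is therefore a description only. In the untreated genotype difference the Malat1 span was 1.84, against a median of 0.67, and 3.97% of the genes spanned as much.

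A sixth probe set, 1418187_at, is annotated with the same source sequence as 1418188_a_at and 1418189_s_at but to another gene, Ramp2, a receptor activity modifying protein. It was looked at after its values were seen. Its signals were 79.9, 98, 84.9 and 41.2 on the p53-/- Dnmt1-/- arrays and 57.5, 75.2 and 223.8 on the p53-/- arrays. It was lower after removal than untreated, by -0.80 in log2(signal + 11.4), where the Malat1 pair of that source sequence was higher.

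**Figure D3:**
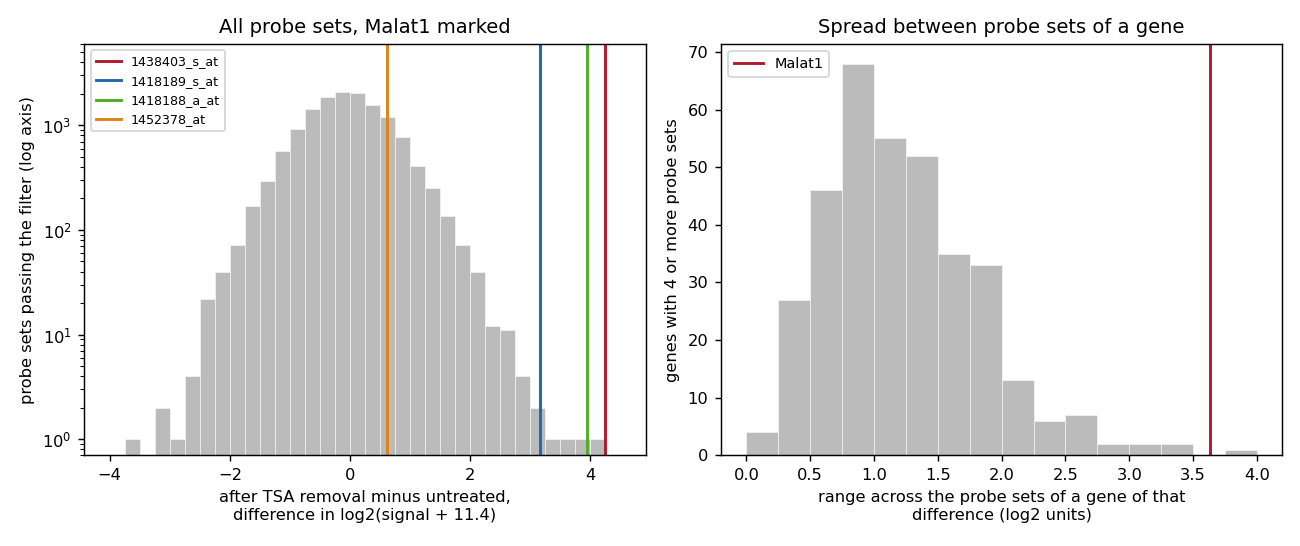
Left, the number (log axis) of the 14012 probe sets by their difference in log2(signal + 11.4), after TSA removal minus untreated, in p53-/- Dnmt1-/- cells, with the 4 Malat1 probe sets that passed the filter as lines. Right, the number of the 353 other genes with 4 or more probe sets by the range of that difference across their probe sets, with Malat1 as a line at 3.63.

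Neat1 read in the same directions as the brightest Malat1 probe set, with smaller differences. Its probe set 1428083_at had signals of 96.8, 162.3, 167 and 218.3 on the p53-/- Dnmt1-/- arrays and of 175.1, 333.5 and 295.6 on the p53-/- arrays. It read higher with TSA at both times in both genotypes, with means of 0.70 ± 0.03 in p53-/- Dnmt1-/- cells and 0.80 ± 0.12 in p53-/- cells (SD, n = 2 times each). A limma fit with terms for genotype and TSA time used the 6 arrays other than the after-removal one. In it Neat1, p53-/- Dnmt1-/- minus p53-/-, differed by -0.85 ± 0.18 (SE, limma adjusted p = 0.00567) and was lower at 3 of 3 times. Its TSA difference over both genotypes was 0.75 ± 0.19 (SE, limma adjusted p = 0.104). After removal it exceeded the untreated array by 1.09, against 4.24 for 1438403_s_at.

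The other genes nearest to Malat1 on the chromosome were higher in p53-/- Dnmt1-/- cells or did not pass the test. Of the 5 nearest genes with a probe set on each side, 9 of 10 passed the filter. By limma, 5 of these 9 were higher in p53-/- Dnmt1-/- cells and Neat1 alone was lower, where 17.6% of all probe sets were higher and 19.3% lower. Map3k11, a kinase upstream of JNK, was higher by 2.47 ± 0.22 (SE, limma adjusted p = 5.97e-05). Pola2, a subunit of DNA polymerase alpha, was higher by 2.06 ± 0.19. Znrd2, Frmd8 and Dpf2 were higher by 1.36, 0.66 and 0.56, and Ltbp3, Ehbp1l1 and Slc25a45 did not pass, at -0.27, -0.51 and -0.05. After removal minus untreated, the 9 ranged from -1.62 for Frmd8 to 1.09 for Neat1.

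The genes whose profile over the 7 arrays was most like that of 1438403_s_at were Tmem167, Far1, Crebzf, Luzp1, Osbpl11, Vps41, Scoc and Slc25a36, with Pearson's r of 0.98 to 0.96 among those 8894 probe sets. Far1 makes fatty alcohols for ether lipids, Vps41 is part of a complex that tethers vesicles to lysosomes, and Slc25a36 carries nucleotides into mitochondria. Their swings were smaller: Tmem167 had signals of 13, 18.1, 22.6 and 90 on the p53-/- Dnmt1-/- arrays and of 31.5, 73.1 and 64.8 on the p53-/- arrays. Far1 had signals of 24.5, 28.5, 32.3 and 135.4 on the p53-/- Dnmt1-/- arrays and of 48.3, 84.5 and 112.2 on the p53-/- arrays. Of the 8, 6 read highest after removal, while Crebzf and Vps41 read highest in p53-/- cells at 48 h. The most opposite profiles were those of Nmur2, Sash3, Ap4b1 and Polr2a, with r of -0.98 to -0.97. Polr2a was read here by a probe set other than its brightest. Without the after-removal array, an alternative added after seeing the data, the 8 most alike were Vps41, Igf1r, Fyn, Serinc1, Mtmr6, Enpp5, Ccn3 and Tifa, so 1 of the 8 genes, Vps41, was in both.

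**Figure D4:**
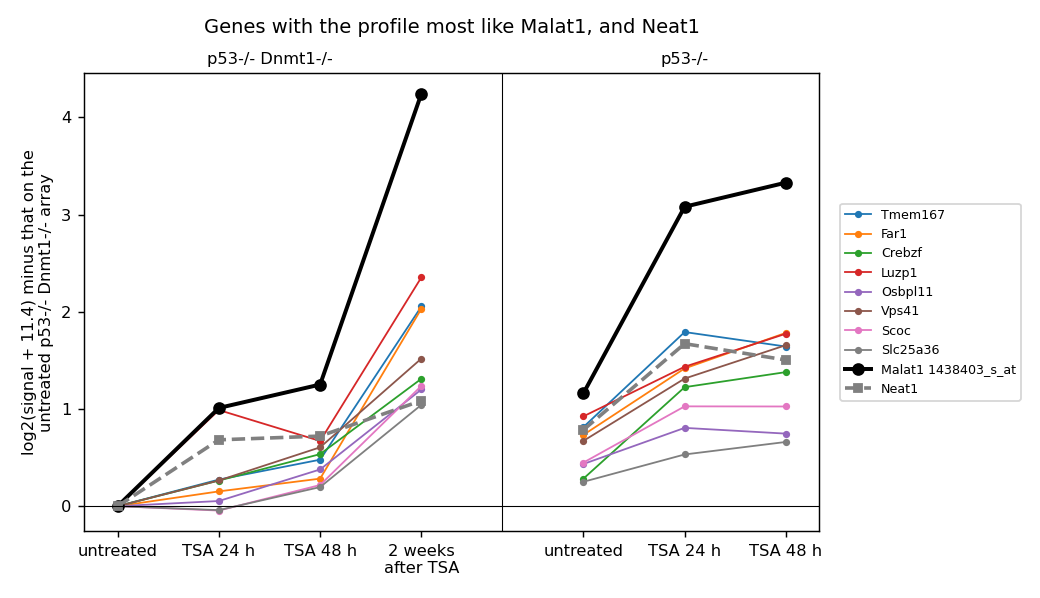
Profiles of Malat1 (1438403_s_at, black), Neat1 (grey, dashed) and the 8 genes most like Malat1, as log2(signal + 11.4) minus that on the untreated p53-/- Dnmt1-/- array, 1 point per array. Malat1 reaches 4.24 after removal and Neat1 1.09.

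Genes that make, bind or break down nuclear RNA were taken from 6 lists: noncoding RNAs, speckle proteins, paraspeckle proteins, subunits of RNase P and RNase Z, enzymes and readers of the m6A mark on RNA, and the nuclear exosome. Of 126 listed genes that passed the filter, 26 were higher in p53-/- Dnmt1-/- cells and 10 were lower in the limma test. The other 90 did not pass it. The median over the 126 was 0.16, against 0.15 for 14 housekeeping genes read the same way and 0.02 over all probe sets. Over all probe sets the test called 17.6% higher and 19.3% lower, the shares against which each list below is to be read. Leaving out the 48 h pair, 12 were higher. Of 17 noncoding RNAs other than Malat1, 0 were higher and 6 were lower, against 17.6% and 19.3% of all probe sets, with a median of -0.62. Besides Neat1, these were Rian, Meg3, Xist, Norad and Gas5. The imprinted RNA Rian was lower by 2.41 ± 0.25 (log2, SE, limma adjusted p = 0.000159). Its imprinted neighbour Meg3 was lower by 2.35 ± 0.18 (limma adjusted p = 2.62e-05). Xist, which silences the X chromosome in female cells, was lower by 2.12 ± 0.23. The sample titles do not give the sex of the cells, and the part of sex in this difference was not tested. Norad, which binds Pumilio proteins, differed by -1.03, and Gas5, a host of small nucleolar RNAs named here after its values were seen, by -0.99. That was the brightest Gas5 probe set, and 1419291_x_at was also lower, at 730.8 untreated against 933.4 in p53-/- cells. Untreated, 1424843_a_at was instead higher, at 72.4 against 44.4, and 1436222_at too, at 42.8 against 27.7. These higher probe sets were also higher at 48 h, and lower at 24 h.

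Among the enzymes that cut the Malat1 3′ end, 4 of 9 were higher in p53-/- Dnmt1-/- cells and 0 lower, against 17.6% and 19.3% of all probe sets. Rpp25, a subunit of RNase P, had signals of 271.6, 177.6, 218.6 and 183.8 on the p53-/- Dnmt1-/- arrays and of 1.1, 1.7 and 1.8 on the p53-/- arrays, with a difference of 4.16 ± 0.23 (SE, limma adjusted p = 5.72e-06). Pop5, another subunit, was higher by 1.79 ± 0.22 and Elac2, the RNase Z that trims mascRNA, by 0.83 ± 0.19. Rpp14, also a subunit of RNase P, was higher by 0.68. After removal minus untreated, the difference was -0.54 for Rpp25, -0.41 for Pop5, -0.81 for Elac2 and 0.11 for Rpp14.

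Of 53 speckle proteins 14 were higher and 0 lower, against 17.6% and 19.3% of all probe sets. Without the 48 h pair 5 were higher, with time left out of the model 7, without the trend 8, and without the untreated pair 3 were lower. The largest difference was that of Sf3b3, a subunit of the splicing factor SF3B, which was higher by 1.17 ± 0.14 (SE). The splicing factors Srsf2, Prpf3 and Rnps1 were higher by 0.88, 0.85 and 0.80. Of 17 paraspeckle proteins 2 were higher and 3 lower, and without the 48 h pair 1 and 1. The RNA-binding proteins Rbmx, Hnrnph3 and Hnrnpul1 differed by -1.92, -0.91 and -0.51, and the cleavage factor Nudt21 by 0.86. Of 14 m6A genes 1 was higher, Hnrnpc at 0.45, and 1 was lower, Rbm15b at -0.75. Without the 48 h pair 0 of these were higher. Of 16 exosome genes 5 were higher and 0 lower, among them Exosc7 at 1.30, Exosc1 at 1.18, Mphosph6 at 1.00 and Exosc4 at 0.82. Without the 48 h pair 3 were higher, and without the untreated pair 1 was lower. Among 14 housekeeping genes, 4 were higher and 2 lower, with Tfrc at 1.72, Polr2a at 0.80, B2m at -0.68 and Ywhaz at 0.33.

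With TSA, limma called 0 of the 126 listed genes after adjustment, and 31 had an unadjusted p under 0.05, as did 2483 of all 14012 probe sets. Over all probe sets 42 were higher (0.300%) and 10 lower (0.0714%). By the 2-fold rule at both times, Rbmx was lower in p53-/- Dnmt1-/- cells, where 0.378% of all probe sets were, and Dis3, the exosome's nuclease, was lower in p53-/- cells, where 1.03% were. The median TSA difference was 0.05 for noncoding RNAs, -0.31 for speckle proteins, -0.32 for paraspeckle proteins, -0.15 for RNase P and Z, -0.05 for m6A genes and -0.38 for the exosome, against -0.13 for housekeeping genes and 0.01 over all probe sets.

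After removal minus untreated, the lists were counted in both ways, by 1 probe set per gene and by all probe sets. With each gene read by its brightest probe set, 9 of 53 speckle proteins were at least 2-fold higher and 2 lower, and 3 of 17 noncoding RNAs other than Malat1 were higher and 2 lower, where 6.73% of all probe sets were higher and 8.44% lower. The median difference was then 0.11 for speckle proteins and 0.52 for noncoding RNAs, against 0.34 for housekeeping genes and -0.06 over all probe sets. Over all 134 speckle probe sets that passed the filter, 39 were higher and 3 lower, with a median of 0.47. The 39 came from 18 of the 53 genes, and Rbm39 alone gave 8 of them. Probe sets of 1 gene share its RNA, so they are not separate members. Of the 134, 14 had passed the filter only through the after-removal array. All 14 were higher, and 6 of them were of Rbm39. Among the other 120 there were 25 that were higher. Over all 32 noncoding probe sets, 11, of 8 genes, were higher and 5, of 3 genes, lower, with a median of 0.83. Of the 32, 3 had passed only through the after-removal array. For paraspeckle proteins 8 of 37 probe sets, of 6 genes, were higher and 2, of 1 gene, lower. For RNase P and Z 1 of 13 was higher and 1 lower. For m6A genes 3 of 27, of 2 genes, were higher, and for the exosome 2 of 26, of 2 genes. Some of these counts also held probe sets that had passed only through the after-removal array. Without them, 9 of 29 noncoding, 6 of 34 paraspeckle, 0 of 12 RNase P and Z, 2 of 26 m6A and 2 of 26 exosome probe sets were higher. Over all probe sets, 756 of 13641 were then higher. Luc7l2, a splicing factor, held place 3 among all probe sets through 1436766_at, at 348.3 after removal and 19.6 untreated, while its brightest probe set read 499.9 and 289.2 on the same arrays.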

How the data were processed

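The authors deposited 1 signal intensity for each probe set on each array, on a linear scale. Per the submitters' processing notes the tool was MAS5; no version or target intensity was stated in what was used here. The trimmed mean of the deposited intensity values was the same on all 7 arrays. Probe sets were named through the array's annotation table (20393 with 1 symbol, 691 with several, 1606 not listed), with symbols updated through Entrez identifiers to RefSeq. Differences used log2(signal + 11.4). Probe sets passed the filter with a signal above the pooled median of 45.6 on at least 1 array; 64 control probe sets were left out, and 14012 passed. Each listed gene was represented by whichever of its probe sets had the highest mean on that scale.

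Listed genes were tested with limma 3.58.1 in R 4.3.3, over all 14012 probe sets, with terms for genotype and time, a trend on mean level, and a threshold of 0.05 after Benjamini-Hochberg adjustment. Residual degrees of freedom were 2, and the prior added 6.67. It was tested on simulated data. Its p-values set the genotype or TSA difference against the departure from additivity between single arrays. They do not measure the spread between cultures. Malat1 and the gene lists were chosen with earlier results of these data known. Named genes were Neat1, up to 4 per list with the largest called genotype difference and up to 2 with the largest called TSA difference, the 5 nearest with a probe set on each side of Malat1, and the 8 most and 4 least like it. Precision is limited by the number of arrays. Promoter sequence is from RefSeq, GRCm38.p6. The alternatives were other offsets, scalings, filters and normalization, the trend left out, and each time left out; 3 more were added after seeing the data.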

Additional observations from a re-analysis of the deposited data

How the results depend on the processing

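Over 140 Malat1 values recomputed with other offsets, scalings and times, 0 took the opposite sign. A change of offset cannot turn a sign. Leaving out a time could not turn one either, because the differences at all times shared their sign on each probe set. Only the scalings and the normalization could have done so. For 1427285_s_at after removal, at 0, there was no sign to keep, and it ranged from -0.43 to 0.06. For 1438403_s_at the TSA mean was 0.84 in p53-/- Dnmt1-/- cells and 1.82 in p53-/- cells with the offset at the pooled median, and 1.33 and 2.24 with the arrays shifted to the same mean of the housekeeping genes. These moved by more than the SD between times. A larger offset makes log2 differences smaller, and the housekeeping scaling shifts all probe sets of an array alike. Without the filter the span across Malat1 probe sets after removal was 4.24, because a dim probe set entered; with a signal above the pooled median on all arrays 1 Malat1 probe set was left, so no span could be had. Of the 126 listed genes, 12 were higher between genotypes without the 48 h pair and 16 with time left out of the model, against 26; 6 were lower with the strictest filter, against 10, with fewer genes tested. By the 2-fold rule at both times, 1 listed gene was lower with TSA in p53-/- Dnmt1-/- cells and 1 in p53-/- cells. Over all probe sets, the genotype calls were 1323 higher and 1578 lower with the 48 h pair left out, and 1641 and 1502 with the strictest filter, against 2464 and 2701. The TSA calls were 0 and 0 without a filter, 1 and 0 without the trend, 27 and 12 with the strictest filter, 30 and 6 with 1 probe set per gene, 137 and 105 with the 24 h pair left out, and 80 and 51 with the 48 h pair left out, against 42 and 10. The housekeeping scaling shifts every untreated genotype difference by 0.16. No paired analysis was possible over replicate numbers, because each group held 1 array; the fit matched the genotypes by time. Signals below the pooled median limit what 1452378_at and 1427285_s_at can show.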

Other observations

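Rbm39, a splicing factor of nuclear speckles, was chosen after its values were seen, because it was the gene whose probe sets spanned as much as those of Malat1. Of its 9 probe sets that passed the filter, 6 passed only through the after-removal array, where they are high, among them 1442744_at at 292.9 after removal and 17.7 untreated. Of the other 3, the brightest, 1426671_a_at, read 486.7 after removal and 152.3 untreated, 1446147_at read 417.2 and 59.1, and 1420982_at read 37.5 and 56.3.

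Xist, looked at after its values were seen, gave opposite directions on its 2 probe sets that passed the filter. Its brightest probe set, 1436936_s_at, read 63.6 after removal and 114.1 untreated, whereas 1427262_at read 118.3 and 27.8. Gas5 was higher after removal on all 4 of its probe sets, by 0.92 to 1.89 on the log2 scale. Hmga2, a chromatin protein of growing embryonic cells, read 677.5 after removal and 82.9 untreated in p53-/- Dnmt1-/- cells, and 1749 in untreated p53-/- cells.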
